A study of Mus musculus with 10 samples.

Results

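Olfactory receptor genes lie in the mouse genome in long clusters, and 3 of the largest were followed here through the DNA of cultured embryonic stem cells. The clusters were taken as chr2:85000001-90500000, chr7:102500001-108500000 and chr9:37500001-40000000 of the mm10 build, chosen by position and not by their read counts. They held 1400 of the 272566 windows of 10 kb in the deposited table, of which 550 lay on chromosome 2, 600 on chromosome 7 and 250 on chromosome 9. Each cluster was set against the 5 Mb on either side, which together held 3000 windows. The GENCODE annotation placed 616 of its 1399 autosomal genes with an olfactory receptor (Olfr) symbol in the clusters, 287 on chromosome 2, 214 on chromosome 7 and 115 on chromosome 9, and 493 of the 616 were protein coding. Another 76 protein-coding genes lay among them, whereas the flanks held 31 olfactory receptor genes and 321 other protein-coding genes.

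Olfactory receptors are the G protein-coupled receptors with which sensory neurons of the nose detect odorants, and they form the largest gene family of the mouse. Each neuron transcribes a single receptor allele, while the rest of the family, and the whole family in other tissues, is kept silent in condensed chromatin. These clusters are rich in A and T. In most cell types they are copied late in S phase, so in dividing cells they can yield fewer DNA reads than early-copied surroundings. Replication timing was not measured in these samples.

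The samples were mouse embryonic stem cells (mESCs) of 2 male C57/Bl6 lines grown in 2i/LIF, a serum-free medium with inhibitors of MEK and GSK3 and the cytokine LIF that holds cells in a naive pluripotent state. Each line was sampled at passage 0 (p0), the end of derivation, and then split between 2 culture protocols and sampled again at passages 10 and 20 (p10 and p20). Mulas2019 cells were grown attached to gelatin at lower density and passaged every other day, and Keniry2022 cells were grown in suspension on plates without tissue-culture treatment, at higher density, and passaged daily. The 5 groups of 2 libraries each (p0, p10 Mulas2019, p20 Mulas2019, p10 Keniry2022 and p20 Keniry2022) were sequenced as genomic DNA at low coverage. A passage spans more days in Mulas2019 than in Keniry2022, so equal passage numbers are not equal times in culture, and p10 Mulas2019 and p20 Keniry2022 stand the same number of days after p0. The labels name no mutation or transgene in these lines.

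Libraries held 27270648 to 35354358 reads, with a median of 114 to 148 reads per autosomal 10 kb window. The replicate number stands for the line, but the 2 libraries labelled p20 Keniry2022 may carry exchanged numbers: replicate 1 of the other 4 groups held 125 to 442 reads of chromosome Y and replicate 2 held 10784 to 21001, while the library labelled p20 Keniry2022 replicate 1 held 14408 and that labelled replicate 2 held 222. This touches the pairing of lines and not the group means. Of the 1400 windows, 65 had a mean below 0.1 of the median autosomal window, 19 in the chromosome 2 cluster and 46 in the chromosome 7 cluster, and 18 of these were empty in every library. On chromosome 7, 43 of them lay in 3 stretches between positions 105830001 and 106320000, the first of which includes an assembly gap of 55000 bases.

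The clusters were poor in G and C beside their flanks. Their GC content was 37.6% on chromosome 2, 40.1% on chromosome 7 and 38.0% on chromosome 9, against 43.5% over the flanks and 41.9% over the autosomes. Promoters showed the same contrast. In RefSeq promoter sequences (build GRCm38.p6, the assembly of mm10), the 250 bases before the start of 411 olfactory receptor genes of the clusters had a median GC content of 32.4%, and 192 of them (46.7%) held no CG. The 391 other genes with a promoter entry in the flanks had a median of 52.8%, and 24 (6.14%) held no CG, and over all 27025 promoters the values were 52% and 8.26%. The sequences below show what such DNA looks like. For each cluster they give the 250 bases before the start of the receptor gene nearest the middle of its most gene-dense 500 kb bin, followed by those of the listed flank gene nearest the cluster (Nup160, a nuclear pore subunit; Rrm1, the large subunit of ribonucleotide reductase; Robo4, an endothelial guidance receptor). Each is written 5′ to 3′ on the strand of its gene, with G and C in capitals.
Olfr1049 (chr2:86255692-86255941, minus strand): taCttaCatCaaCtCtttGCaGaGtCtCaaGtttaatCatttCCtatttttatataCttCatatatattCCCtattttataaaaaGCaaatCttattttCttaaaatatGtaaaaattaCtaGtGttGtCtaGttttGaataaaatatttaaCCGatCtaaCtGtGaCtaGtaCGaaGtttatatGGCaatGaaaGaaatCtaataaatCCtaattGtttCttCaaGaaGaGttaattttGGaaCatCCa
Nup160 (chr2:90676965-90677214, plus strand): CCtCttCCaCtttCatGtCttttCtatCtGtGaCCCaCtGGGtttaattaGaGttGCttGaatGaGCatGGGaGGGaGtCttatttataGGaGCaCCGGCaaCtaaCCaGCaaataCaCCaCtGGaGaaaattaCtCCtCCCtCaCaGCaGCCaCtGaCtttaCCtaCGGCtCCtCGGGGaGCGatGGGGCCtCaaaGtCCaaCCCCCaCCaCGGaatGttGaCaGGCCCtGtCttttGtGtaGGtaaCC
Olfr560 (chr7:102753928-102754177, minus strand): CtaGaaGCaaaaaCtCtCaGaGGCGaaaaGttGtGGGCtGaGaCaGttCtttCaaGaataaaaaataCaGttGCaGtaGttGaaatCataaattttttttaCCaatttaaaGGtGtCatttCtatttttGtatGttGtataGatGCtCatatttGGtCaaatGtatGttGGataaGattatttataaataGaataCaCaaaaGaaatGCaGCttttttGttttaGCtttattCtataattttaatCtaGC
Rrm1 (chr7:102441445-102441694, plus strand): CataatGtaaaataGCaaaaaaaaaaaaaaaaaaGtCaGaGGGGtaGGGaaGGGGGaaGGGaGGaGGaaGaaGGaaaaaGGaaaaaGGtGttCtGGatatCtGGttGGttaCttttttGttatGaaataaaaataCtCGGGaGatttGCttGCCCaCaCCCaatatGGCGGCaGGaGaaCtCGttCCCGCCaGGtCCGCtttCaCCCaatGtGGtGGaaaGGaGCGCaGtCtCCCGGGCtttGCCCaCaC
Olfr895 (chr9:38268265-38268514, plus strand): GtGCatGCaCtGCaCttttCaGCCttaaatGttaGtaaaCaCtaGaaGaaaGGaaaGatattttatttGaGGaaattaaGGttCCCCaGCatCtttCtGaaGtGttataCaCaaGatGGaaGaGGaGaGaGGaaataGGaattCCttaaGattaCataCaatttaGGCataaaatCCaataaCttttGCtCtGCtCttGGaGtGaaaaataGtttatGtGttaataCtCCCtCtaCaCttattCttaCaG
Robo4 (chr9:37401722-37401971, plus strand): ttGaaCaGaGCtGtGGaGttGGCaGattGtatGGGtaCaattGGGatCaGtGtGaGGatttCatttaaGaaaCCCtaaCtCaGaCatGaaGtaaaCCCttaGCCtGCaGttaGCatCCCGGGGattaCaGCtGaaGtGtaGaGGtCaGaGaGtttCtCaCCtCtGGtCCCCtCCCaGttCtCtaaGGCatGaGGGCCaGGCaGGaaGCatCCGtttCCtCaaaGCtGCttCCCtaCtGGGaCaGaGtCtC
The GC content of these 6 sequences was 25.2% for Olfr1049, 28% for Olfr560 and 34.4% for Olfr895, against 50% for Nup160, 46% for Rrm1 and 49.6% for Robo4.

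At p0 the clusters were under-represented. They made up 0.514% of the table's length, but 0.394% of the reads of p0 replicate 1 (95% Wilson interval 0.392 to 0.396, counting error only) and 0.393% of those of replicate 2 (0.391 to 0.395). In mean reads per window, pooled cluster density was 0.591 and 0.594 of flank density in the p0 libraries. The ratio rose to 0.774 and 0.796 at p10 Mulas2019. It was 0.664 and 0.671 at p20 Mulas2019, 0.652 and 0.676 at p10 Keniry2022, and 0.621 and 0.626 at p20 Keniry2022. The p10 Mulas2019 libraries thus stood closest to even representation, p0 stood farthest from it, and neither group overlapped another. The p20 Mulas2019 and p10 Keniry2022 libraries overlapped.

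Each cluster showed this order of extremes. On chromosome 2 the log2 ratio of cluster to flank density was -0.74 and -0.75 at p0, and -0.35 and -0.28 at p10 Mulas2019. On chromosome 7 it was -0.75 and -0.73 at p0, and -0.41 and -0.40 at p10 Mulas2019. On chromosome 9 it was -0.80 and -0.79 at p0, and -0.30 and -0.25 at p10 Mulas2019. The chromosome 9 cluster, the smallest, had the lowest p0 ratio of the 3. The low windows lowered the chromosome 7 level without changing the order of the groups: without them its p0 ratios were -0.63 and -0.62 and its p10 Mulas2019 ratios -0.29 and -0.28.

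**Figure D1:**
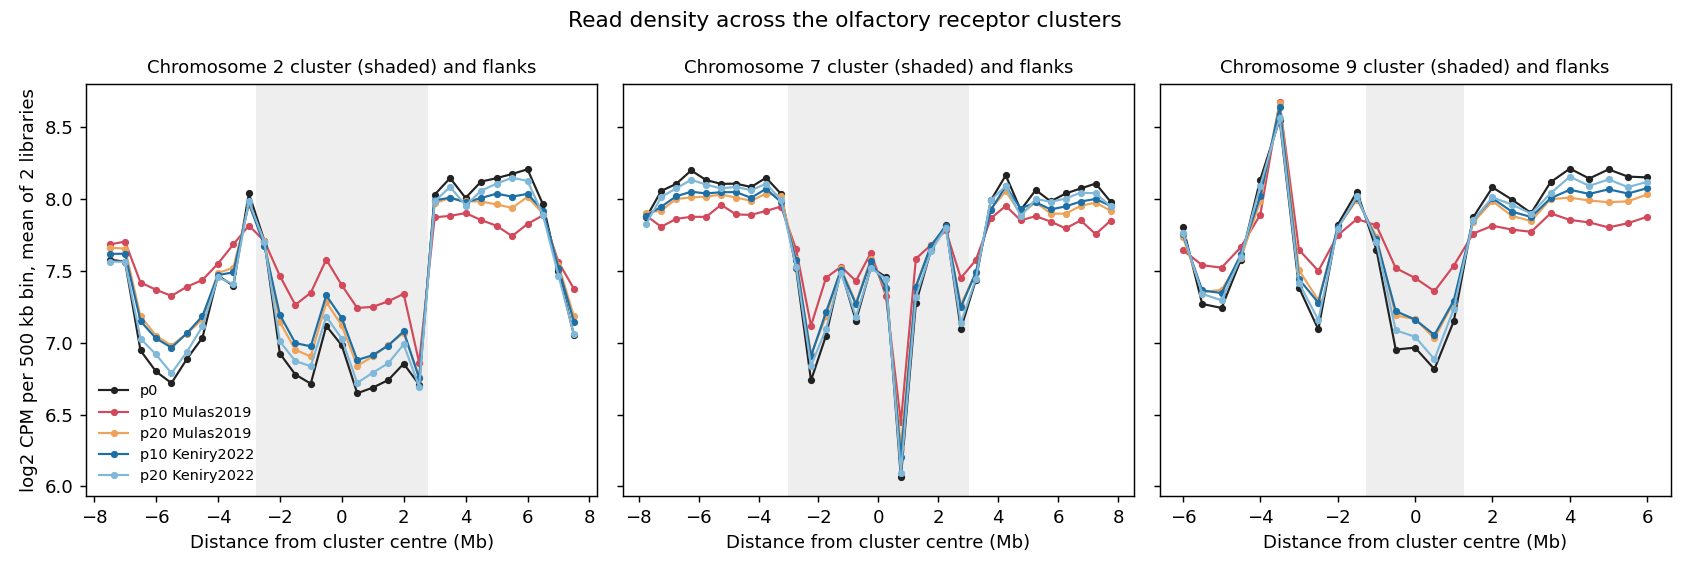
Mean log2 CPM (reads scaled to the library total) of the 2 libraries of each group in 500 kb bins (vertical axis) by distance from the centre of each cluster in Mb (horizontal axis), with the cluster shaded. Lines join the bins of 1 group. Density dips inside each shaded cluster and in some flank bins, and the p10 Mulas2019 line is flatter than the p0 line, higher in most dips and lower in most high-density flank bins.

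The change of each cluster relative to its flanks was tested with limma on the log2 ratios of all 10 libraries, together with 435 autosomal tiles of 5 Mb treated the same way. At p10 Mulas2019 the pooled clusters rose relative to their flanks by 0.41 ± 0.017 (log2, SE, n = 2 libraries per group; 1.32-fold; limma adjusted p = 2.6e-12), by 0.39 in line 1 and 0.42 in line 2. The chromosome 9 cluster rose most, by 0.52 ± 0.018, and no tile rose more, although this cluster spans 2.5 Mb and each tile 5 Mb. The chromosome 2 cluster rose by 0.43 ± 0.019 and the chromosome 7 cluster by 0.34 ± 0.017. The sizes rested on the side taken as reference. Against only the 5 Mb before or only the 5 Mb after, the rise was 0.18 or 0.62 on chromosome 2, 0.35 or 0.32 on chromosome 7, 0.36 or 0.67 on chromosome 9, and 0.29 or 0.51 for the pooled clusters. Rises of this kind were common: 45.3% of the 439 regions tested were called higher than their flanks in this comparison, against which the calls of the clusters have to be read, and 11 tiles rose more than the pooled clusters.

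At later passage and under the other protocol the clusters lay between these extremes. All 4 comparisons with p0 share the same 2 p0 libraries. At p20 Mulas2019 the pooled clusters were 0.17 ± 0.017 higher relative to flanks than at p0 (limma adjusted p = 3.5e-07), in a comparison that called 39.4% of regions higher. At p10 Keniry2022 the difference was 0.16 ± 0.017 (limma adjusted p = 8.5e-07), where 35.5% of regions were called higher. At p20 Keniry2022 it was 0.073 ± 0.017 (limma adjusted p = 0.0057), where 15.5% were. That last call was lost on leaving out p0 replicate 2 (0.070) or the library labelled p20 Keniry2022 replicate 1 (0.072) or replicate 2 (0.075).

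The protocols were also compared directly at each passage number, although equal passages differ in days. At p10 the pooled clusters were lower relative to flanks in Keniry2022 than in Mulas2019 by -0.24 ± 0.017 (limma adjusted p = 4.4e-09), by -0.25 in line 1 and -0.24 in line 2, in a comparison that called 42.1% of regions lower. The difference was -0.24 on chromosome 2, -0.21 on chromosome 7 and -0.31 on chromosome 9. Against only the 5 Mb before or only the 5 Mb after, the chromosome 2 difference at p10 was -0.091 or -0.36. At p20 it was -0.099 ± 0.017 (limma adjusted p = 0.00019), where 33% of regions were called lower. On chromosome 2 the p20 difference (-0.082) rested on the side taken as reference, since it was -0.14 against the 5 Mb after the cluster and 9.4e-05 against the 5 Mb before it. Those 5 Mb before the chromosome 2 cluster have a GC content of 39.1% and no olfactory receptor gene.

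These changes went with base composition. Across the 435 tiles, the change at p10 Mulas2019 followed the GC difference between tile and flanks with r = -0.94, a description over neighbouring stretches of the same libraries. The clusters stood at 38.7% GC against 43.5% in their flanks, a gap that 4 of the 435 tiles exceeded. Each library's log2 CPM was then corrected by subtracting its own smooth curve on the GC content of autosomal 500 kb bins. After this GC correction the pooled change was -0.012 ± 0.0088 at p10 Mulas2019, -0.023 at p20 Mulas2019, -0.0018 at p10 Keniry2022 and -0.00011 at p20 Keniry2022, and none passed limma's threshold. The differences between protocols became 0.010 at p10 and 0.023 at p20, and neither passed. Among the separate clusters, the chromosome 2 cluster at p20 was an exception, 0.037 ± 0.0097 higher in Keniry2022 than in Mulas2019 (limma adjusted p = 0.042). Its direction was opposite to the uncorrected difference. Over all alternatives of this comparison, uncorrected ones included, limma adjusted p ran from 0.00020 to 0.996. The GC-corrected call was lost with a GC curve drawn on 10 kb windows (0.029, limma adjusted p = 0.28).

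GC correction also drew the groups together in level. The pooled log2 ratio then ran from -0.12 to -0.16 over all 10 libraries. By cluster it ran from -0.080 to -0.14 on chromosome 2, from -0.21 to -0.23 on chromosome 7, and from -0.024 to 0.031 on chromosome 9. The chromosome 7 cluster thus stayed below its flanks in every library at a like level, and this cluster holds most of the low windows. A GC curve drawn on 10 kb windows in place of 500 kb bins left 0.045 at p10 Mulas2019 (limma adjusted p = 0.00085). This setting called 41.7% of the 439 regions in either direction. Over all alternatives of the pooled comparison, uncorrected ones included, limma adjusted p ran from 4.5e-27 to 0.31. The source of the GC trend was not tested, and it differs between the groups, so a change in GC-dependent recovery of DNA and a change in the copy number of AT-rich DNA cannot be told apart here.

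**Figure D2:**
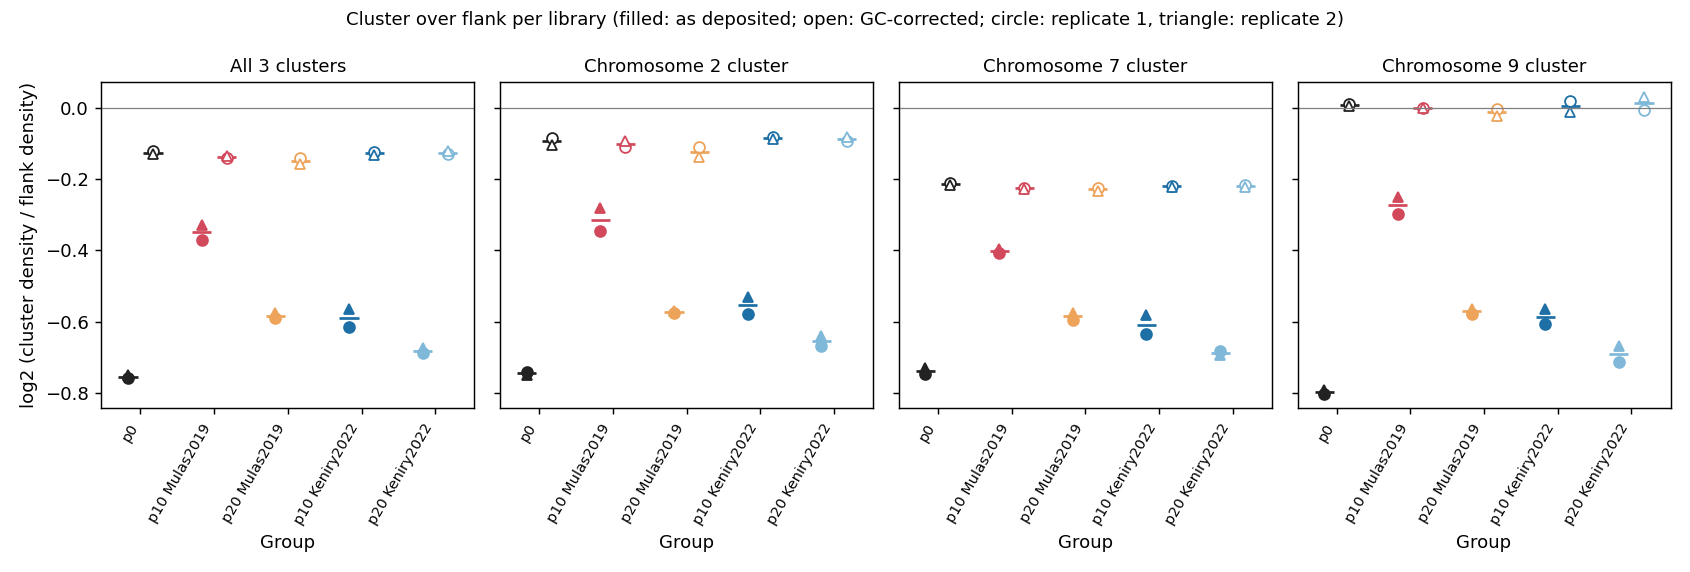
log2 of cluster density over flank density (vertical axis) in each library by group (horizontal axis), for the 3 clusters pooled and each alone. Filled symbols are uncorrected and open symbols GC-corrected, circles are replicate 1, triangles replicate 2 and lines the mean of 2 libraries: filled symbols run from -0.76 to -0.33 for the pooled clusters and open symbols from -0.12 to -0.16.

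Inside the clusters, 500 kb bins were tested one by one with limma (TREAT, which asks for more than a 1.1-fold change, adjusted over 5071 bins). At p10 Mulas2019 against p0, 19 of the 28 member bins were higher and 0 lower (0 at an unadjusted p below 0.05 too), against 33.9% of all bins called higher. The median change of the 28 bins was 0.38 on the log2 scale, beside 0.014 over all bins. The 19 bins, 9 of 11 on chromosome 2, 6 of 12 on chromosome 7 and 4 of 5 on chromosome 9, had a GC content of 36.2% to 39.4% and held 494 olfactory receptor genes and 19 other protein-coding genes. The 9 bins that did not pass had 40.1% to 43.7% GC and held 122 olfactory receptor genes and 59 other protein-coding genes. After GC correction no member bin passed (0 of 28), and their changes ran from -0.11 to 0.15.

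At the other points fewer member bins passed. At p20 Mulas2019 1 of 28 was higher than at p0, the bin starting at 89000001 on chromosome 2, where 7.3% of all bins were. At p10 Keniry2022 2 were, those starting at 85500001 on chromosome 2 and at 38000001 on chromosome 9 (limma adjusted p = 0.043 and 0.04998), where 1.7% were. These 3 bins are named for having passed. Both counts depended on settings. They were 3 and 4 with the line as a fixed replicate block, and both were 0 with no replicate block, with voom, without the filter on low bins, with autosomal median centring and without either p0 library. The count at p10 Keniry2022 was also 0 with the block crossed for the p20 Keniry2022 libraries. At p20 Keniry2022 0 passed in limma, 0 at an unadjusted p below 0.05 and 0 with voom, where 0% of all bins were called higher. Between protocols, 15 of 28 member bins were lower in p10 Keniry2022 than in p10 Mulas2019, where 21.8% of all bins were lower, and 8 passed without p10 Keniry2022 replicate 1, where 12.3% of all bins passed in either direction. At p20, 0 of 28 differed in limma, at an unadjusted p below 0.05 and with voom, where 0% of all bins were called lower. Without a minimum change, limma called 23 bins higher and 1 lower at p10 Mulas2019, 22 higher and 1 lower at p20 Mulas2019, 21 higher and 1 lower at p10 Keniry2022, and 4 higher at p20 Keniry2022 against p0. Over all bins this setting called 45.5% higher and 42.9% lower, 41.6% higher and 34.1% lower, 37.2% higher and 30.6% lower, and 9.47% higher and 1.01% lower in the same 4 comparisons, and at p10 Mulas2019 the 85.7% of member bins called in either direction lay below the 88.4% of all bins.

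On chromosome 2 the largest rise was in the bin starting at 86500001, with 26 olfactory receptor genes and a GC content of 36.3%. Its log2 CPM was 6.70 and 6.73 at p0, 7.31 and 7.39 at p10 Mulas2019, 6.90 and 6.91 at p20 Mulas2019, 6.93 and 7.01 at p10 Keniry2022, and 6.83 and 6.85 at p20 Keniry2022. The p10 Mulas2019 libraries lay above all others and the p0 libraries below all others. The bin was picked for the change between these 2 groups, so this order follows in part from the choice. The share of all bins with the same order was not counted. The change against p0 at p10 Mulas2019 was 0.63 ± 0.032 (limma adjusted p = 4.4e-08), and 0.041 after GC correction. The bin with the most receptor genes, 42 of them from 86000001, rose by 0.48 ± 0.041 (limma adjusted p = 2.5e-06), and its GC-corrected change was -0.11. The smallest change was in the first bin, from 85000001, which has the cluster's highest GC content at 41.9% and 9 receptor genes, and its log2 CPM stayed between 7.66 and 7.72 in all 10 libraries.

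The chromosome 7 cluster was more mixed in content and in change. Its largest rise, 0.40 ± 0.026 (limma adjusted p = 3.7e-07), was in the bin from 103500001, which has 34 receptor genes, the beta-globin genes and 37.7% GC. Its log2 CPM was 7.05 in both p0 libraries and 7.44 and 7.47 at p10 Mulas2019. The bin with the most receptor genes, 35 from 102500001, has 40.1% GC and changed by 0.13 ± 0.022 (limma adjusted p = 0.83). The bin from 105500001, with 15 other protein-coding genes, no receptor gene and the highest GC content of 43.7%, had the lowest value, a change of -0.13 ± 0.026 (limma adjusted p = 0.86). Receptor number alone therefore did not order the bins.

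On chromosome 9 the bin from 38000001 had both the most receptor genes (29) and the largest rise, 0.57 ± 0.033 (limma adjusted p = 7.1e-08), at 37.2% GC. Its log2 CPM was 6.95 in both p0 libraries, 7.50 and 7.54 at p10 Mulas2019, and 7.05 and 7.13 at p20 Keniry2022. The first bin, from 37500001, had the highest GC content at 40.5% and the smallest change, 0.17 ± 0.024 (limma adjusted p = 0.18).

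Of the 6 flank bins that touch the clusters, 5 had changes below 0 at p10 Mulas2019, and 3 lay inside the range of the 28 member bins (-0.13 to 0.63). The flank bin just before the chromosome 2 cluster has 45.1% GC, 19 other protein-coding genes and no receptor gene, and it fell by 0.22 on the log2 scale at p10 Mulas2019 (limma adjusted p = 0.014). The bin just after it changed by -0.16 (limma adjusted p = 0.34). The bin before the chromosome 9 cluster fell by 0.19 (limma adjusted p = 0.042), and the bin after it changed by -0.11. The bins beside the chromosome 7 cluster changed by -0.088 before it and by 0.14 after it, and that latter bin carries 19 receptor genes outside the cluster's limit at 40.7% GC. Over all 60 flank bins, 28 fell, with changes of -0.43 to -0.18 at 44.1% to 50.4% GC, and 11 rose, against 25.8% of all bins called lower and 33.9% called higher. The 11 rose by 0.26 to 0.61, 6 of them before and 1 after the chromosome 2 cluster and 4 before the chromosome 9 cluster. All 11 had 36.2% to 40.2% GC and none held a receptor gene.

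**Figure D3:**
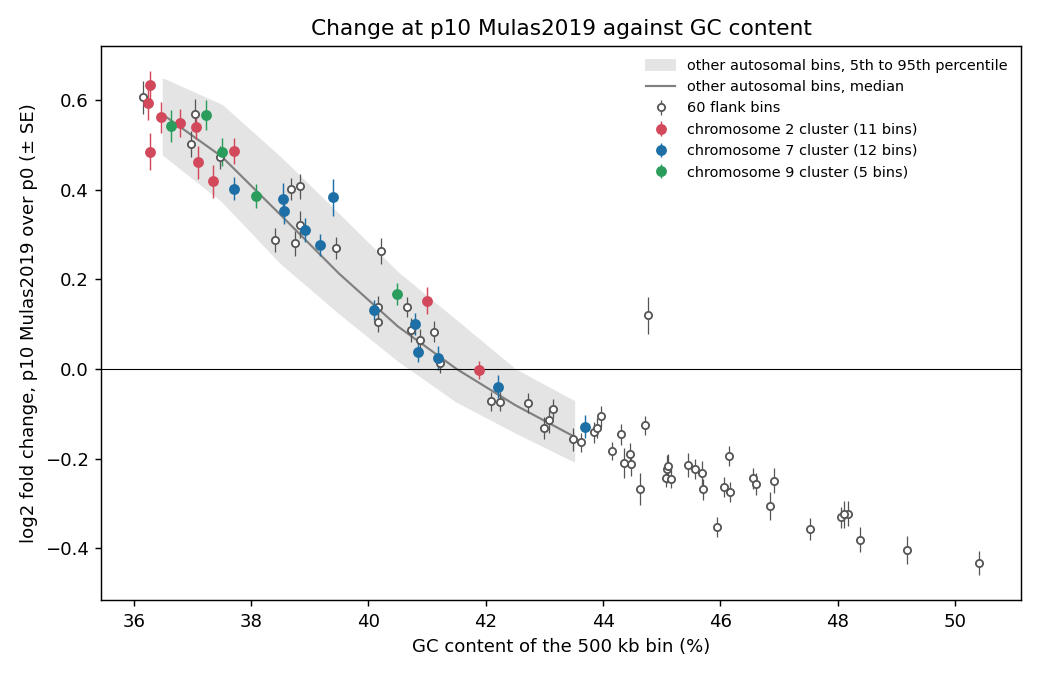
log2 fold change of each 500 kb bin at p10 Mulas2019 against p0 (vertical axis, bars are SE) by its GC content in percent (horizontal axis). Filled points are the 28 cluster bins, open points the 60 flank bins, and the grey line and band the median and the 5th to 95th percentile of other autosomal bins in 1-point GC bands. Values of cluster and flank bins fall with GC content, from 0.63 to -0.43, and most cluster bins lie inside the band. The flank bin from 35000001 on chromosome 9 lies above this trend, at 0.12 with 44.8% GC.

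Set beside other autosomal bins of like GC content, the cluster bins had changes close to theirs below 39% GC and, at higher GC, medians above theirs. With 36% to 37% GC, the 6 member bins had a median change of 0.55 at p10 Mulas2019 and 325 other bins one of 0.57. With 37% to 38% the medians were 0.48 over 7 member bins and 0.47 over 420 others, and with 38% to 39% they were 0.37 over 4 and 0.34 over 424. With 39% to 40% they were 0.33 over 2 and 0.21 over 430, and 1 of these 2, at 0.38, lay above the others' 95th percentile of 0.34. The member medians in the 4 bands from 40% to 44% were 0.12, 0.025, -0.039 and -0.13, over 9 bins, beside 0.095, 0.00056, -0.080 and -0.15 for the others. In the 41% to 42% band, 1 member bin, at 0.15, lay above the others' 95th percentile of 0.11. Over the 28 member bins the change fell by 0.10 per percentage point of GC (r = -0.98). The flank bins fell by 0.075 per point (r = -0.95).

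Within the clusters, windows that overlap a receptor gene were poorer in GC than those that do not, and they changed more. Of the 1335 windows not low in reads, 763 overlapped a receptor gene (37.1% GC) and 572 did not (40.8%). Receptor windows had 0.776 and 0.789 of the density of the others in the p0 libraries, and 0.975 and 0.996 at p10 Mulas2019. The ratio was 0.853 and 0.854 at p20 Mulas2019, 0.839 and 0.871 at p10 Keniry2022, and 0.815 and 0.821 at p20 Keniry2022. By cluster, the log2 ratio went from -0.36 and -0.32 at p0 to 0.0050 and 0.023 at p10 Mulas2019 on chromosome 2, from -0.29 and -0.26 to -0.039 and -0.013 on chromosome 7, and from -0.26 and -0.25 to 0.039 and 0.054 on chromosome 9. Receptor windows of chromosome 2 were the most depleted at p0, with a log2 density of -0.78 in both libraries relative to the autosomal mean.

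At like GC content the 2 kinds of window changed by similar amounts. From 34% to 36% GC the mean density of 197 receptor windows changed by 0.63 and that of 15 other windows by 0.63 (log2, p10 Mulas2019 against p0). From 36% to 38% the changes were 0.48 for 271 receptor windows and 0.49 for 80 others. From 38% to 40% they were 0.34 for 174 and 0.30 for 175, and from 40% to 42% 0.18 for 57 and 0.12 for 136. These are sums over windows of the same libraries, given without a test.

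**Figure D4:**
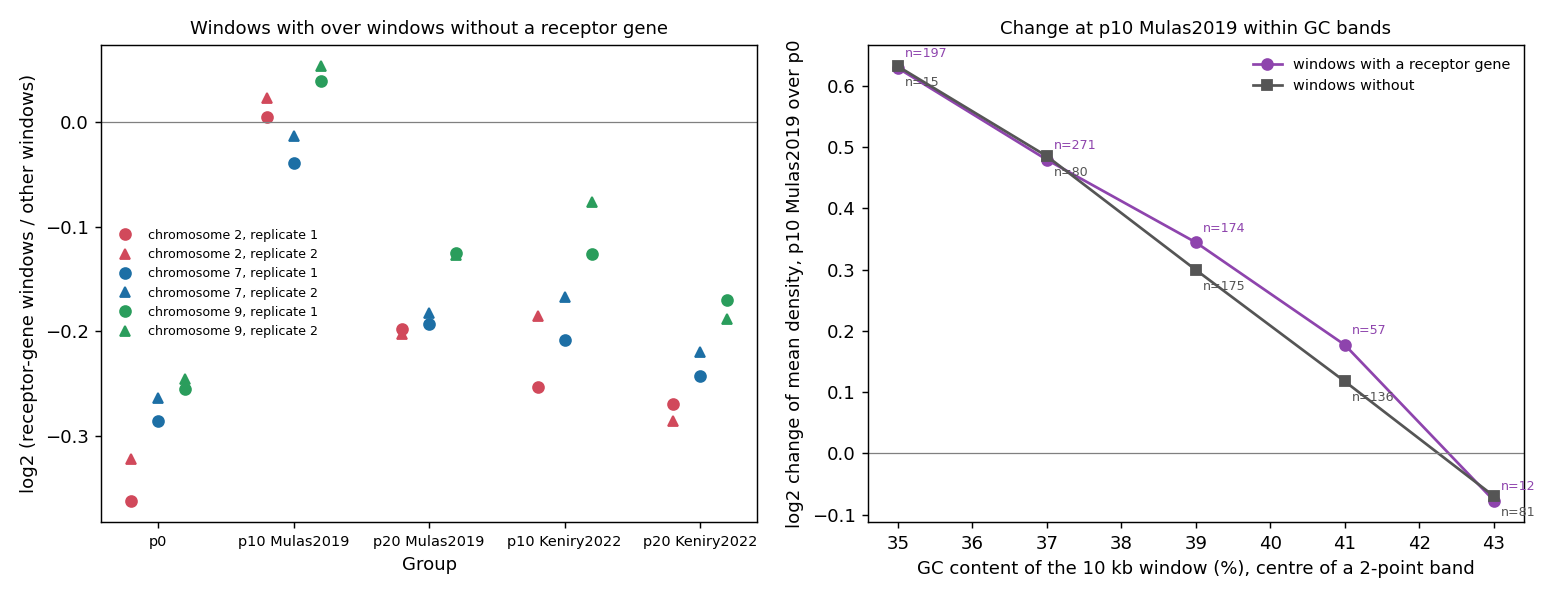
Left, log2 of the density of windows with a receptor gene over windows without (vertical axis) in each library by group (horizontal axis), coloured by cluster, circles for replicate 1 and triangles for replicate 2. Right, log2 change of mean density at p10 Mulas2019 against p0 (vertical axis) for both kinds of window in 2-point GC bands (horizontal axis, percent), with the number of windows at each point: the ratios run from -0.36 at p0 to 0.054 at p10 Mulas2019, and within a band the 2 kinds differ by at most 0.060 in change.

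Among listed genes inside the chromosome 7 cluster, the beta-globin genes, which encode the oxygen carrier subunits of red blood cells, lie between receptor genes. Reads of the windows they overlap changed by 0.15 to 0.27 (log2, median 0.24) at p10 Mulas2019 for the 5 genes Hbb-bt, Hbb-bs, Hbb-bh1, Hbb-bh2 and Hbb-y, some of which share windows. Their values did not follow the cluster's order of groups: at p10 Keniry2022 they ran from -0.095 (Hbb-bs) to 0.59 (Hbb-bt), higher than at p10 Mulas2019 for Hbb-bt, Hbb-bh1 and Hbb-bh2, and at p20 Mulas2019 from -0.13 (Hbb-bs) to 0.24 (Hbb-bh1), with Hbb-y also below 0 at both. Hbb-bh1, an embryonic globin at chr7:103841637-103843164, had 100 and 102 reads in its window at p0 and 102 and 151 at p10 Mulas2019, in libraries of unequal depth. Such counts are too low for a firm change of 1 gene, but all 5 lie in the bin that rose.

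The Trim genes of the cluster encode ubiquitin ligases, several of which restrict retroviruses or sense antibody-coated virus. The windows of the 12 listed, at 39.3% to 43.8% GC, changed by -0.27 to 0.13 with a median of -0.013, and 6 of 12 were below 0. Trim5, related to a factor that blocks incoming retroviral capsids, had 204 and 211 reads at p0 and 152 and 202 at p10 Mulas2019. Trim30a had 790 and 670 at p0 and 693 and 894 at p10 Mulas2019. Of the 12, 11 lay within bins that did not pass the threshold, and Trim30d reached from such a bin into the bin from 104500001, which passed as higher (0.28, limma adjusted p = 9.2e-05).

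Of 18 genes listed for the flanks 16 lay in a flank, and the windows of 14 of these had values below 0 at p10 Mulas2019 against p0, given without a test, with a median of -0.28 over the 16 and a range of -0.49 to 0.0093. Spi1, a transcription factor of blood cells at 50.2% GC, changed by -0.49, and Thy1, a surface protein of neurons and T cells at 52% GC, by -0.38. Nup160 and Itgav, an integrin subunit, at 41.0% and 41.4% GC, changed by 0.0032 and 0.0093. Of the 16, 7 lay wholly or, for Numa1, in part in bins that passed as lower, which 28 of the 60 flank bins and 25.8% of all bins did. Ssrp1, a histone chaperone subunit listed for the flanks, proved to lie in the first bin of the chromosome 2 cluster, and its windows at 49.2% GC changed by -0.44 inside a bin that changed by -0.0018.

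Olfactory receptor genes also lay elsewhere. Outside the 3 clusters, 71 bins, 68 of them also outside the flanks, held at least 3 receptor genes each, 753 in all, with a median GC content of 40.9%. At p10 Mulas2019 against p0, 29 of the 71 were higher and 9 lower, with a median change of 0.13, beside 33.9% of all bins higher and 25.8% lower. At p20 Mulas2019 2 were higher, where 7.3% of all bins were, and 0 passed with limma in either direction at p10 Keniry2022 or p20 Keniry2022, where 1.7% and 0% of all bins were higher. Their changes at p10 Mulas2019 fell by 0.084 per percentage point of GC (r = -0.97).

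At the resolution of the deposited windows, most cluster windows lay on the side of the cluster change; these shares are given without a test. Of the 1335 windows, 1131 (84.7%) were higher at p10 Mulas2019 than at p0, with a median change of 0.38. The share was 90.8% on chromosome 2, 75.8% on chromosome 7 and 91.6% on chromosome 9, against 35.8% of the 2992 flank windows. The flanks are richer in GC than the autosomes (43.5% against 41.9%). Over the whole genome, 2605 of 5071 bins of 500 kb lay above 0 in this comparison. The changes of single windows went with GC content, with r = -0.77 in the clusters and r = -0.81 in the flanks. At p20 Mulas2019 75.9% of the cluster windows were higher than at p0, at p10 Keniry2022 77.2% and at p20 Keniry2022 62.4%, against 38.9%, 40.8% and 41.8% of the flank windows. Counting error at a median of 114 to 148 reads per autosomal window adds to the spread of single windows.

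One flank window stood out: chr9:35300001-35310000 held 3439 to 5883 reads in every library, from 5.07% to 8.81% of the reads of the 5 Mb before the chromosome 9 cluster. Its share was 5.29% and 5.17% at p0 and 8.81% and 7.51% at p10 Mulas2019. Leaving out windows of such height left the call of every pooled comparison in place.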

How the data were processed

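Genomic DNA of 2 mESC lines in 5 groups was sequenced as single short reads. The authors deposited log2 CPM in 10 kb windows of mm10. The submitters' processing notes name bcl2fastq and Bowtie2. How windows were counted for this table is not given in those notes or the study's methods, which describe 1 Mb bins. The deposited log2 values came out as whole reads in 100% of cells within 0.1 read, and these reads were summed per bin. Of 272566 rows, 272564 were used, and 2 mitochondrial rows held no reads.

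Log2 CPM (0.5 reads added) of 5071 of 5462 bins of 500 kb, kept where the mean reached 0.1 of the median bin, was fitted with limma 3.58.1 (R 4.3.3, statmod 1.5.0) over all 10 libraries with 5 group coefficients and a trended prior. The line was a random block (duplicateCorrelation, consensus 0.090 for bins and 0.22 for regions), as in the study's methods. TREAT used a minimum fold change of 1.1 and a false discovery rate of 0.05. The study used voom on 1 Mb bins. Here 500 kb was taken because every cluster and flank boundary falls on it, and voom was an alternative because the unit is log2. Regions were tested on log2 ratios of reads per window to the 5 Mb on each side, without a minimum, over 439 regions (3 clusters, their pool and 435 tiles). Olfactory receptor genes were GENCODE vM21 genes with symbols starting Olfr. The GC correction subtracted a loess curve (span 0.3) of each library on autosomal bins. Pairing by line comes from the study's design. Deviations of same-numbered libraries from their group means correlated at 0.013 to 0.39 over bins between groups other than p20 Keniry2022, and at -0.54 to -0.050 with it.

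The named bins were, per cluster, those with the highest and lowest log2 change at p10 Mulas2019, the most receptor genes and the highest GC content, and the 2 flank bins that touch it. The clusters, gene lists and tests were chosen with earlier results of these data known. Larger changes put into simulated bins, drawn from the mean counts of these libraries, were mostly recovered by the fits. So were shifts put into simulated regions made of normal noise. The smallest bin change was left out of this check. The simulations had no line effect and no GC trend between groups. Intervals cover counting error only, since reads carry no molecular identifiers. Python 3.11.15 with pandas 2.3.3 and matplotlib 3.10.9 was used for summaries and figures.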

Additional observations from a re-analysis of the deposited data

Results flagged for a closer look

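The change of the clusters relative to their flanks since p0 differed between the 2 culture protocols by a direct limma test, which is why these results are listed. For the pooled clusters the log2 difference of Keniry2022 minus Mulas2019 was -0.24 at p10 and -0.099 at p20. For the chromosome 2 cluster it was -0.24 and -0.082, for the chromosome 7 cluster -0.21 and -0.10, and for the chromosome 9 cluster -0.31 and -0.12. Among the 500 kb bins of the clusters, 15 of 28 differed between the protocols at p10, all lower in Keniry2022, where 21.8% of all bins were lower. After GC correction the pooled differences were 0.010 and 0.023, and none of these bins passed. The part of the GC trend in the difference between protocols was not tested beyond this correction.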

How the results depend on the processing

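GC correction on 500 kb bins ended the call of every pooled comparison. With it, with or without the fixed replicate block, the share of the 28 member bins past TREAT's threshold was 0% in all 6 comparisons, of which p20 Keniry2022 against p0 and the protocols at p20 had 0% without it too. The pooled change against flanks became -0.012 at p10 Mulas2019 (limma adjusted p = 0.31, range over all alternatives, uncorrected ones included, 4.5e-27 to 0.31). It became -0.023 at p20 Mulas2019, -0.0018 at p10 Keniry2022 and -0.00011 at p20 Keniry2022. The differences between protocols became 0.010 at p10 and 0.023 at p20. In the same order of comparisons, the chromosome 2 values that turned sign were -0.0079 and -0.030 in Mulas2019 and 0.017 and 0.037 between protocols. On chromosome 7 they were -0.012, -0.014, -0.0063, -0.0051, 0.0057 and 0.0093, and on chromosome 9 -0.0084, -0.021, -0.0038, 0.0045 and 0.026. The GC curve of 10 kb windows left calls in place at p10 Mulas2019, 0.045 for the pooled clusters (limma adjusted p = 0.00085, where 41.7% of regions were called) and 0.055, 0.042 and 0.056 on chromosomes 2, 7 and 9, and on chromosome 2 at p10 Keniry2022 (0.044, limma adjusted p = 0.013). The other pooled values with it did not pass, 0.0039 at p20 Mulas2019, 0.028 at p10 Keniry2022, 0.019 at p20 Keniry2022, -0.017 between protocols at p10 and 0.015 at p20. Single clusters turned to -0.0025 (chromosome 2, p20 Mulas2019), and between protocols at p20 to 0.029, 0.0033 and 0.018 on chromosomes 2, 7 and 9. Against the 5 Mb before it alone, the chromosome 2 cluster differed between protocols at p20 by 9.4e-05. The cause was not tested.

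Without GC correction the pooled comparisons kept their direction under 19 or 20 alternatives each, flank choices included, but their sizes moved. Values ran from 0.29 to 0.62 at p10 Mulas2019, 0.12 to 0.27 at p20 Mulas2019, 0.12 to 0.25 at p10 Keniry2022 and 0.054 to 0.11 at p20 Keniry2022. Between protocols they ran from -0.37 to -0.17 at p10 and -0.16 to -0.062 at p20. Leaving out each library in turn gave 0.39 to 0.42 at p10 Mulas2019, 0.168 to 0.176 at p20 Mulas2019, 0.14 to 0.19 at p10 Keniry2022, 0.070 to 0.077 at p20 Keniry2022, -0.26 to -0.22 between protocols at p10 and -0.100 to -0.098 at p20. The call at p20 Keniry2022 was lost without p0 replicate 2, and without either p20 Keniry2022 library.

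The bin counts below p10 Mulas2019 depended on settings. The share of member bins called stayed at 67.9% at p10 Mulas2019 without any library, and ran from 0% to 10.7% at p20 Mulas2019, from 0% to 17.9% at p10 Keniry2022, from 28.6% to 60.7% between protocols at p10, and was 0% at the other 2. Over all bins the shares in these fits were 54.8% to 59.9%, 0% to 9.56%, 0% to 4.73%, 12.3% to 35.9% and 0%. The lowest value between protocols was without p10 Keniry2022 replicate 1. At p20 Mulas2019 the call was lost without either p0 or either p20 Mulas2019 library, and at p10 Keniry2022 without either p0 library or p10 Keniry2022 replicate 2, while leaving out p10 Keniry2022 replicate 1 or either p20 Keniry2022 library raised the count. With no replicate block it was 0% at p20 Mulas2019 and p10 Keniry2022, with the fixed replicate block 10.7% and 14.3% (10.9% and 4.75% of all bins), and with the block crossed for p20 Keniry2022 0% at p10 Keniry2022. Between protocols at p10, 13 member bins passed with no replicate block (28.1% of all bins) in place of 15 (30.1%). The block moved no other pooled call or count of member bins, and without it or with it crossed the chromosome 7 change at p20 Keniry2022 (0.050) did not pass. Voom, no filter on low bins and autosomal median centring each gave 0% at p20 Mulas2019 and p10 Keniry2022, and 1 Mb bins 8.33% at p20 Mulas2019 (8.89% of all bins). Windows of 10 kb gave 28.2% at p10 Mulas2019, beside 15.8% of all windows, and 0% at p20 Mulas2019, p10 Keniry2022 and between protocols at p10. Without a minimum change the shares were 85.7%, 82.1%, 78.6% and 14.3% at p10 Mulas2019, p20 Mulas2019, p10 Keniry2022 and p20 Keniry2022, and 82.1% and 60.7% between protocols, beside 88.4%, 75.7%, 67.8%, 10.5%, 80.1% and 56.1% of all bins. Reading the methods' 1.1 as a log2 value left 0% in all comparisons. Leaving out both p20 Keniry2022 libraries gave 10.7% and 14.3% at p20 Mulas2019 and p10 Keniry2022, beside 9.52% and 3.79% of all bins. That setting and the one without high-count windows were chosen after seeing the data.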
